A study of Homo sapiens with 6 samples.

Results

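RBM10, RBM5 and RBM6 are 3 related RNA-binding proteins, and they were followed here at the level of their transcripts in PC-9 cells in which RBM10 was silenced. Every transcript listed under 1 of the 3 gene symbols was taken, which gave 9 isoforms of 51398 and 3 gene symbols of 26334. RBM10 was listed with 5 isoforms, RBM5 with 2 and RBM6 with 2, and 8 of the 9 passed the filter on low counts. PC-9 is an established line from a human lung adenocarcinoma, driven by an activating deletion in EGFR, and was grown in serum-containing medium. The cells carried a scrambled control shRNA (shScr), the shRNA shRBM10#1 or the shRNA shRBM10#2, with 2 RNA-Seq libraries per condition and 6 in all. The sample titles and the RNA-Seq methods of the paper name no drug. The labels call the control shScr and the methods speak of parental cells in its place. The labels were followed. No label says that the libraries of a condition came from separate cultures, so the p values measure the spread between these libraries, which may be technical. The study used these cells to ask how loss of RBM10 changes the transcript isoforms of an EGFR-mutant line, and the comparison made here asks what became of RBM10 itself and whether its paralogs rose when it fell.

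The 3 proteins share an arrangement of RNA recognition motifs, zinc fingers, an OCRE domain and a C-terminal G-patch, a glycine-rich motif that engages RNA helicases. They act in the early spliceosome, where they bind pre-mRNA near splice sites and influence whether an exon is kept. RBM10 is best known for promoting exon skipping, and it is recurrently mutated in lung adenocarcinoma. It is also known to make exons of its own transcript and of the RBM5 transcript be skipped, which brings in a premature stop codon and sends the RNA to nonsense-mediated decay. RBM5 and RBM6 are neighbors in the tumor suppressor region of the short arm of chromosome 3, and RBM10 is on the X chromosome. These points are background and were not tested here.

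In GRCh38, the GENCODE 29 annotation places RBM10 (ENSG00000182872.15) at chrX:47144869-47186813, RBM6 (ENSG00000004534.14) at chr3:49940007-50100045 and RBM5 (ENSG00000003756.16) at chr3:50088908-50119021, all on the plus strand. The annotated spans of RBM6 and RBM5 overlap, but the RBM6 transcripts matched to the isoforms quantified here end before the first exon of RBM5. The relation of the 3 genes can be read from a short coding exon. Each matched transcript of full length (RBM10-203, RBM5-201 and RBM6-201) holds exactly 1 exon of 74 nt, and it is exon 6 in all 3. The exons are at chrX:47175019-47175092, chr3:50100532-50100605 and chr3:49999440-49999513. They are shown because the listed RBM5 isoforms differ in length by the size of exon 6 and because it shows how close the paralogs are. The exon also holds the site of an shRNA. The sense part of the hairpin that the paper lists for shRBM10#2 is found, without a mismatch, inside RBM10 exon 6. RBM5 exon 6 matches that stretch at most of its bases but not at all of them. Whether shRBM10#2 acts on RBM5 RNA was not tested. Capitals mark the bases found at the same position in all 3.
RBM10 exon 6: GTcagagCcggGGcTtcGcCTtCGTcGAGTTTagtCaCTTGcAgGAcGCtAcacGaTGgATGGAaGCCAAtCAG
RBM5 exon 6: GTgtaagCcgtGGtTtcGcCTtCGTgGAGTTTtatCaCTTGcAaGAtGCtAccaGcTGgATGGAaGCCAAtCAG
RBM6 exon 6: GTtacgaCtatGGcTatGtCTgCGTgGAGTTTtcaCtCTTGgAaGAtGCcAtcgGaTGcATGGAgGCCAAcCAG
RBM10 and RBM5 were identical at 61 of the 74 positions (82.4%), RBM5 and RBM6 at 51 (68.9%) and RBM10 and RBM6 at 48 (64.9%), and all 3 genes shared 45 positions (60.8%). RBM5 was thus the closer paralog of RBM10 in this exon. The length of 74 nt is not a multiple of 3, so that its loss shifts the reading frame.

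**Figure D1:**
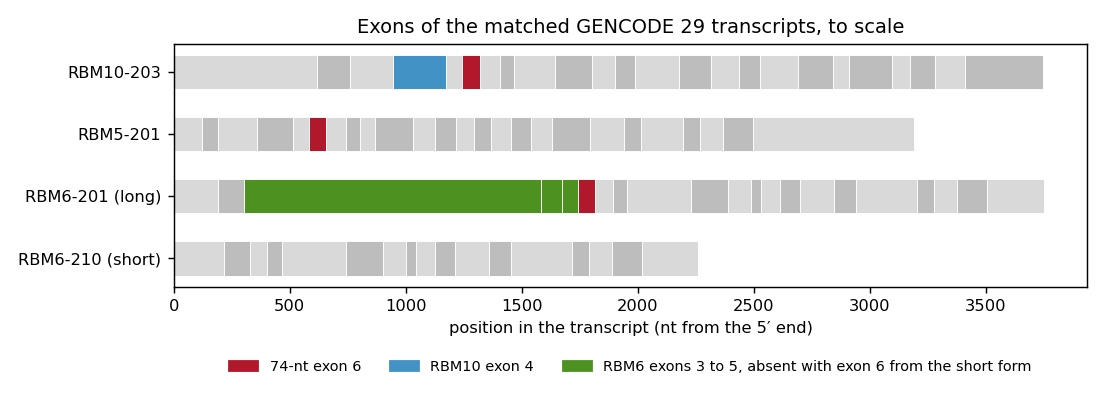
The exons of 4 GENCODE 29 transcripts are drawn to scale along the transcript, with the position in nt from the 5′ end on the x axis and 1 transcript per row. The 74-nt exon 6 is red in RBM10-203, RBM5-201 and RBM6-201, RBM10 exon 4 (231 nt) is blue, and the green RBM6 exons 3 to 5 are missing, together with exon 6, from the short transcript RBM6-210.

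The isoforms of RBM10 differ mainly by 2 events. The first is exon 4, a coding exon of 231 nt at chrX:47171028-47171258, which was present in NM_001204467, NM_001204468 and NM_005676 and absent from NM_001204466 and NM_152856. It is shown because the isoforms with and without it are set against each other in the results on RBM10 isoforms.
RBM10 exon 4: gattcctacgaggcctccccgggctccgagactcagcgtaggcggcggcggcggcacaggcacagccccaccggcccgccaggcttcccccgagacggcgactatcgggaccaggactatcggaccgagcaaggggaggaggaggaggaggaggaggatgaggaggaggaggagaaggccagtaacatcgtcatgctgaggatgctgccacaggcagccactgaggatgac
The second event is a pair of 5′ splice sites 3 nt apart at the end of exon 10. The longer form ends at position 47180040 and the shorter at position 47180037 of chromosome X. The last 30 bases of the longer form, chrX:47180011-47180040, are given with the 3 bases that the upstream site leaves out in capitals.
RBM10 exon 10, 3′ end: tttgccttcatccagctctccaccatcGTG
By their matched transcripts, NM_005676, NM_001204466 and NM_001204468 carried these 3 bases and NM_152856 lacked them. NM_001204467 was matched to the same transcript as NM_005676, which has the longer form. It is listed as 3 nt shorter than NM_005676, and its lack of the 3 bases was inferred from that length. Isoforms that differ by so few bases share nearly all their reads, and the division of reads between them was estimated by RSEM.

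Library totals ranged from 31953729 to 37557507 expected counts, and the TMM scaling factors from 0.979 to 1.02. Epithelial markers were abundant in each library (EPCAM 379 to 455 TPM, KRT8 8355 to 10597 TPM). The lung lineage markers NKX2-1, NAPSA and SFTPC reached at most 0.75 TPM, so that the lung identity of the line rested on its label. Of the markers of other cell types, PTPRC and COL3A1 reached at most 0.10 TPM, PECAM1 ranged from 1.16 to 1.64 TPM and COL1A1 from 1.99 to 2.88 TPM. The mean fragment length implied by the effective lengths was 231 nt in shScr replicate 2 and 265 to 281 nt in the other 5 libraries. TPM divides by effective length, and the part of this difference in the TPM values was not tested.

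RBM10 was lower with both shRNAs, and far lower with shRBM10#2. Its gene total, in CPM (counts scaled by library size and TMM factor), was 83.2 and 86.2 for shScr, 59.8 and 56.4 for shRBM10#1 and 27.2 and 26.9 for shRBM10#2. The 3 conditions did not overlap, and the replicates of a condition differed by at most 1.06-fold. With shRBM10#1, 68.6% of the shScr level remained (95% CI, 62.1% to 75.9%), a log2 fold change (FC) of -0.54 (SE 0.067, edgeR FDR = 0.000228). With shRBM10#2, 31.9% remained (95% CI, 28.7% to 35.4%), a log2 FC of -1.65 (SE 0.070, edgeR FDR = 5.10e-08). The difference between the shRNAs was itself past the threshold, with a log2 FC of -1.11 for shRBM10#2 against shRBM10#1 (edgeR FDR = 3.65e-06). Against shScr, 881 of 14217 genes had a log2 FC as low as or lower than that of RBM10 with shRBM10#1, and 44 did with shRBM10#2. For scale, 6.91% of the genes tested fell with shRBM10#1, 13.9% fell with shRBM10#2 and 14.5% were lower with shRBM10#2 than with shRBM10#1. The mean of both shRNAs against shScr was -1.10 on the log2 scale (edgeR FDR = 3.14e-07), where 9.85% of genes fell. When the 4 shRNA libraries were entered as 1 group, whose spread then held the gap between the shRNAs, this pooled value was -0.99 with an FDR of 0.146. In bulk RNA, fewer cells that express RBM10 and less RBM10 RNA in each cell cannot be told apart.

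RBM5, the paralog that can move exon choice in cell death genes and arrest growth, was modestly higher with both shRNAs. Its CPM was 24.2 and 23.6 for shScr, 26.9 and 31.8 for shRBM10#1 and 31.0 and 31.4 for shRBM10#2. All 4 shRNA libraries were above both shScr libraries, whereas the shRBM10#1 libraries lay on both sides of the shRBM10#2 libraries. With shRBM10#2, RBM5 rose to 131% of the shScr level (95% CI, 114% to 149%), a log2 FC of 0.38 (SE 0.088, edgeR FDR = 0.00757), in a comparison where 12.0% of genes rose. With shRBM10#1, it rose to 123% (95% CI, 108% to 140.4%), a log2 FC of 0.30 (SE 0.089, edgeR FDR = 0.0410), where 7.13% of genes rose. The mean of both shRNAs against shScr was 0.34 on the log2 scale (edgeR FDR = 0.00951), where 8.51% of genes rose. A rise of this size was common in these cells. With shRBM10#1, 1635 of 14217 genes had a log2 FC as high as or higher than RBM5, and with shRBM10#2, 1488 did. The balance of calls differed between edgeR on counts and limma on log2(TPM + 1), fits that differ in test, normalization and scale. With shRBM10#1, 1014 genes rose and 982 fell on counts, against 280 and 680 on log2(TPM + 1). With shRBM10#2, 1708 rose and 1977 fell on counts, against 510 and 1141 on log2(TPM + 1).

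The call for RBM5 with shRBM10#1 was less firm than that with shRBM10#2. Over 14 other ways of fitting, the shRBM10#1 value stayed above 0 (0.17 to 0.41) and passed an FDR of 0.05 in 4 of them, with FDR values up to 0.413. Without shRBM10#1 replicate 2, the higher of its libraries, the log2 FC was 0.17 (FDR = 0.277), and blocking on the replicate number gave an FDR of 0.0510. With shRBM10#2, the value ranged from 0.30 to 0.40, and 10 of 14 fits passed. The exceptions were both fits on TPM, with FDR values of 0.112 and 0.0993, and the fits without either shRBM10#2 library, with 0.0567 and 0.0768. The pooled RBM5 call was lost without shScr replicate 1 (0.36, FDR = 0.0526) or replicate 2 (0.32, FDR = 0.0801). RBM10 fell further with shRBM10#2 than with shRBM10#1, but a difference in RBM5 between the shRNAs was not detected. The log2 FC of RBM5 for shRBM10#2 against shRBM10#1 was 0.09 (95% CI, -0.10 to 0.27, edgeR FDR = 0.493). The comparisons with each shRNA share the same shScr libraries, so they are not independent of each other.

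**Figure D2:**
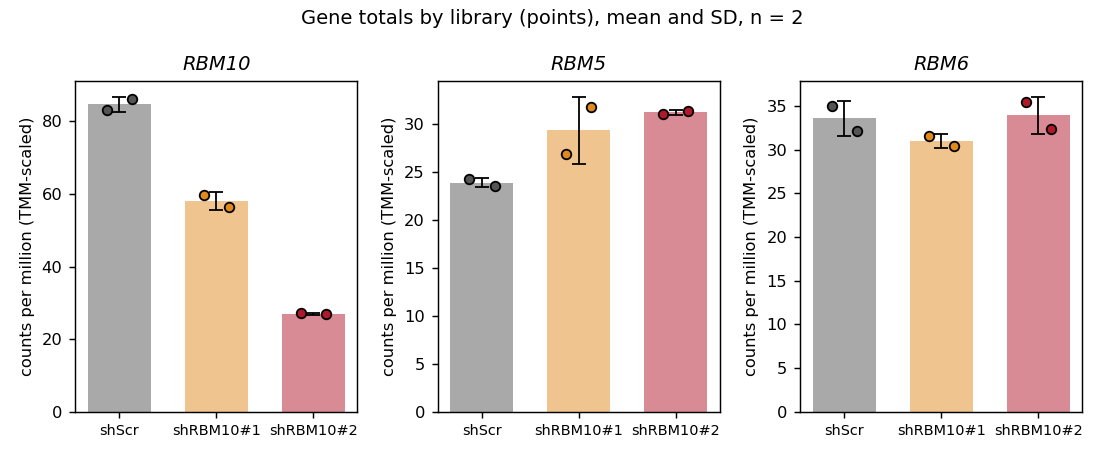
Gene totals of RBM10, RBM5 and RBM6 in TMM-scaled CPM (y axis) for shScr, shRBM10#1 and shRBM10#2, with 1 point per library, the mean as a bar and the SD as an error bar (n = 2). RBM10 steps down from condition to condition, all 4 shRNA libraries are above the shScr libraries for RBM5, and the RBM6 values of shScr (32.2 and 35.0) and shRBM10#2 (32.4 and 35.4) overlap.

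RBM6, which is known to oppose RBM5 and RBM10 in the splicing of NUMB, showed no detectable change. Its CPM was 35.0 and 32.2 for shScr, 31.6 and 30.5 for shRBM10#1 and 35.4 and 32.4 for shRBM10#2. The shRBM10#2 libraries overlapped the shScr libraries, and both shRBM10#1 libraries were just below them. The log2 FC was -0.12 with shRBM10#1 (95% CI, -0.29 to 0.06, edgeR FDR = 0.367) and 0.01 with shRBM10#2 (95% CI, -0.16 to 0.18, edgeR FDR = 0.914), and the latter was below 0 on the TPM scale (-0.10 or -0.11, by pseudocount). The interval for shRBM10#2 leaves room for a level between 89.8% and 114% of shScr. None of the 14 other fits of each RBM6 comparison passed the threshold. For shRBM10#2 against shRBM10#1, the log2 FC of RBM6 was 0.13 (edgeR FDR = 0.247), and for the mean of both shRNAs against shScr it was -0.05 (edgeR FDR = 0.654).

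**Figure D3:**
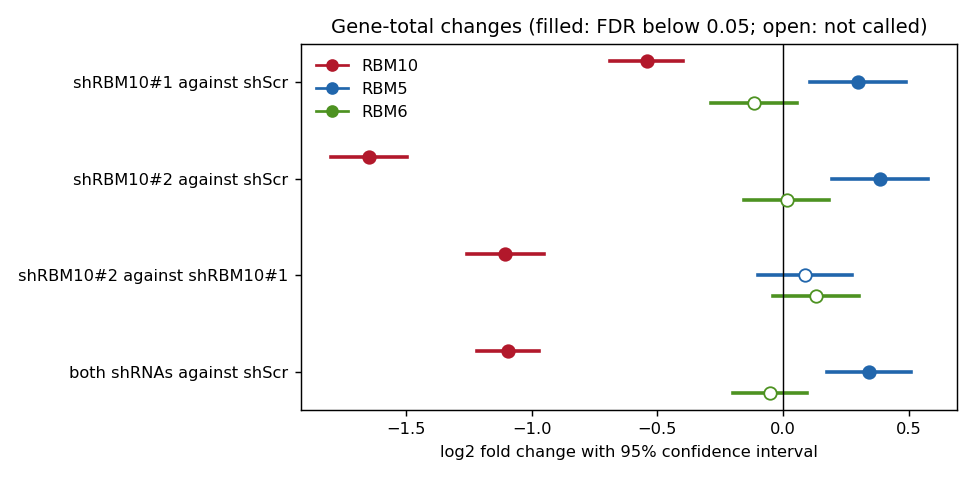
Log2 fold changes of the gene totals (x axis) with 95% confidence intervals for 4 comparisons (rows), in red for RBM10, blue for RBM5 and green for RBM6, with filled points at an FDR below 0.05. RBM10 is below 0 in each row, RBM5 is above 0 and called in the 3 rows against shScr, and each RBM6 interval crosses 0.

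Levels of different genes can be compared only per length, and TPM gives that scale. In the shScr libraries RBM10 was the highest of the 3 genes at 38.5 and 45.7 TPM, ahead of RBM6 at 19.3 and 19.99 TPM and RBM5 at 12.1 and 13.5 TPM. With shRBM10#1, RBM10 was still the highest at 28.4 and 25.8 TPM, with RBM6 at 17.7 and 16.4 TPM and RBM5 at 13.7 and 15.6 TPM. With shRBM10#2 the order was turned, with RBM10 at 13.1 and 12.8 TPM below RBM5 at 15.9 and 16.1 TPM and RBM6 at 18.8 and 17.7 TPM. In each condition the TPM ranges of the 3 genes did not overlap. The TPM ratio of RBM10 to RBM5 was 3.19 and 3.40 for shScr, 2.08 and 1.65 for shRBM10#1 and 0.825 and 0.797 for shRBM10#2.

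The difference in RBM5 was small beside that in RBM10. From shScr to shRBM10#2, mean RBM10 fell by 29.2 TPM, mean RBM5 was 3.21 TPM higher, which is 11.0% of that fall, and the difference in mean RBM6 was -1.38 TPM. From shScr to shRBM10#1, mean RBM10 fell by 15.0 TPM, mean RBM5 was 1.87 TPM higher, which is 12.5% of that fall, and the difference in mean RBM6 was -2.63 TPM. The sum of the 3 genes was 69.9 and 79.2 TPM for shScr, 59.7 and 57.8 TPM for shRBM10#1 and 47.9 and 46.5 TPM for shRBM10#2, so that it did not stay level. The mean sum differed from that of shScr by -21.1% with shRBM10#1 and by -36.7% with shRBM10#2, and no library of either shRNA reached the lower shScr value. Without shScr replicate 2, the library with the shorter fragments, the differences were -15.9% and -32.5%. They were -25.8% and -40.4% without shScr replicate 1, and -16.8% and -35.1% on TMM-scaled counts. RBM10 made up 55.1% and 57.7% of the sum for shScr, 47.6% and 44.7% for shRBM10#1 and 27.4% and 27.5% for shRBM10#2. In exact two-sided permutation tests of the sum and of this share, each comparison of 2 libraries with 2 gave p = 0.333. By exact permutation, the pooled comparisons gave p = 0.133. Both are the smallest values that these designs allow. After adjustment over 20 tests of sums and shares, each exact permutation p was 0.513. RBM10 was the silenced gene and the largest part of the shScr sum, so its fall alone lowers both measures. Whether the paralogs made up for any of the loss was not tested by these permutations.

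**Figure D4:**
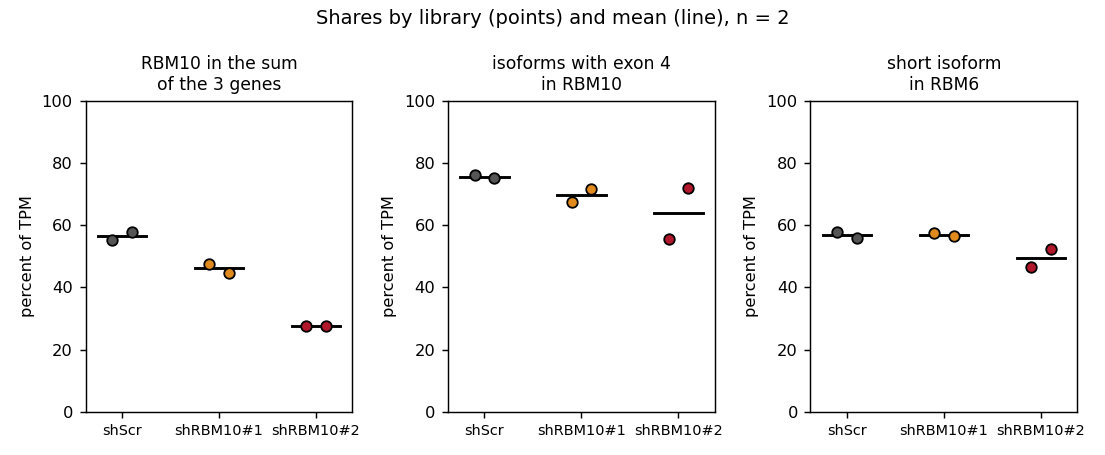
Percent of TPM (y axis) by condition, with 1 point per library and the mean as a line (n = 2): RBM10 in the sum of the 3 genes (left), isoforms with exon 4 in RBM10 (middle) and the short isoform in RBM6 (right). The RBM10 share goes from 55.1% and 57.7% to 27.4% and 27.5%, the shRBM10#2 libraries are far apart in the middle panel (55.7% and 71.9%), and in the right panel they are below the other 4 libraries.

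Each of the 5 RBM10 isoforms was present in each library. Replicates differed by 1.06- to 1.16-fold for NM_001204467 and by up to 3.42-fold for the other 4 isoforms, beside at most 1.06-fold for the gene total. NM_001204467 has exon 4 and, by its length, lacks the 3 extra bases of exon 10. It was the most abundant RBM10 isoform by TPM in 4 of 6 libraries. NM_152856 led in shRBM10#2 replicate 1 and NM_005676 in shRBM10#2 replicate 2. The CPM of NM_001204467 was 29.7 and 34.6 for shScr, 22.6 and 21.2 for shRBM10#1 and 6.48 and 6.96 for shRBM10#2, with no overlap between conditions. It was the only isoform of the 3 genes that passed an FDR of 0.05 in the edgeR fit. With shRBM10#2 its log2 FC was -2.26 (SE 0.11, edgeR FDR = 0.0272), which left 20.9% of the shScr level (95% CI, 17.2% to 25.5%). With shRBM10#1 the log2 FC was -0.55 (SE 0.11, edgeR FDR = 0.119). It also fell for shRBM10#2 against shRBM10#1 (log2 FC -1.70, edgeR FDR = 0.0274) and for the mean of both shRNAs (log2 FC -1.41, edgeR FDR = 0.0471). These calls were close to the threshold. Of 12 other fits, 6 passed for shRBM10#2 against shScr (FDR up to 0.184), 4 for shRBM10#2 against shRBM10#1 and 4 for the pooled comparison, and with the replicate block the shRBM10#2 call was lost (log2 FC -2.26, FDR = 0.108). The shRBM10#2 call also held without shRBM10#1 replicate 2 (FDR = 0.0489) and missed the threshold without any other single library (FDR 0.0508 to 0.184). Calls at the isoform level were rare, at 0.0302% of 26464 isoforms with shRBM10#1, 2.26% with shRBM10#2, 2.25% between the shRNAs and 0.159% in the pooled comparison.

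The other 4 RBM10 isoforms did not pass the test in any comparison. NM_005676, a form with exon 4 and the 3 extra bases, had CPM values of 20.8 and 17.9 for shScr, 8.29 and 13.8 for shRBM10#1 and 2.46 and 8.39 for shRBM10#2, so that its shRBM10#2 replicates differed by 3.42-fold. Its log2 FC with shRBM10#2 was -1.83 (SE 0.59, edgeR FDR = 0.162). NM_001204468 also has exon 4 and the 3 extra bases, and it matched a transcript of 995 codons, beside 930 for NM_005676. NM_001204468 had CPM values of 14.0 and 13.4, 10.5 and 6.27, and 6.80 and 4.39 in the same order, with a log2 FC of -1.29 with shRBM10#2 (SE 0.32, edgeR FDR = 0.102). All shRNA libraries were below the shScr libraries for both of these isoforms. DESeq2 called NM_001204468 with shRBM10#2 (FDR = 0.00107) and edgeR did not.

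The isoforms without exon 4 also differed widely between replicates. NM_152856 had CPM values of 15.6 and 10.2 for shScr, 7.43 and 11.1 for shRBM10#1 and 7.99 and 5.05 for shRBM10#2, with a log2 FC of -0.99 with shRBM10#2 (SE 0.35, edgeR FDR = 0.192, DESeq2 FDR = 0.0302). NM_001204466 had 3.15 and 10.0, 10.9 and 4.02, and 3.54 and 2.09 in the same order, and the libraries of each shRNA overlapped those of shScr. Its shScr replicates differed by 3.18-fold, beside 1.04-fold for the RBM10 gene total in the same libraries. The log2 FC was 0.18 with shRBM10#1 (SE 0.71) and -1.23 with shRBM10#2 (SE 0.73), with edgeR FDR values of 0.952 and 0.414.

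**Figure D5:**
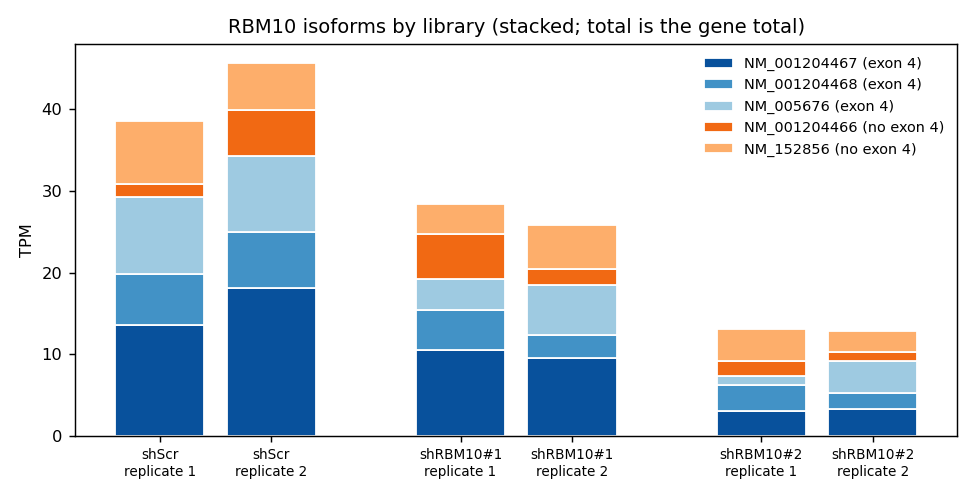
TPM of the 5 RBM10 isoforms stacked per library (y axis, TPM, x axis, library), with the 3 isoforms that have exon 4 in blue and the 2 that lack it in orange, so that the height of a bar is the gene total. The totals fall from 38.5 and 45.7 TPM in shScr to 13.1 and 12.8 TPM in shRBM10#2, the darkest blue part (NM_001204467) shrinks from 13.5 and 18.1 TPM to 3.02 and 3.25 TPM, and the split of the remainder differs between replicates.

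The isoforms were also added up by exon 4, a grouping that was chosen after the values had been seen. The isoforms with exon 4 summed to 29.3 and 34.3 TPM for shScr, 19.2 and 18.5 TPM for shRBM10#1 and 7.31 and 9.19 TPM for shRBM10#2. Those without it summed to 9.22 and 11.4 TPM, 9.21 and 7.33 TPM, and 5.82 and 3.60 TPM in the same order. Of the shScr mean, 59.2% with shRBM10#1 and 25.9% with shRBM10#2 was left for the isoforms with exon 4, against 80.3% and 45.7% for those without it. The share of RBM10 TPM with exon 4 was 76.1% and 75.1% for shScr, 67.6% and 71.6% for shRBM10#1 and 55.7% and 71.9% for shRBM10#2. All 4 shRNA libraries were below both shScr libraries, and the shRBM10#1 libraries lay between the shRBM10#2 libraries. The mean share differed from that of shScr by -5.97 percentage points with shRBM10#1 and by -11.8 points with shRBM10#2 (exact permutation p = 0.333 for each, the smallest that 2 libraries against 2 can give). Without shRBM10#1 replicate 1, the first difference was -3.96 points. The second was -3.72 points without shRBM10#2 replicate 1 and -19.9 points without replicate 2, so that its size rests on which library is used. The share with the 3 extra bases of exon 10 overlapped between all conditions, at 45.0% and 47.9%, 49.9% and 42.3%, and 46.3% and 54.7% (exact permutation p = 1.0 with shRBM10#1 and 0.667 with shRBM10#2).

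A test of isoform usage, which asks whether the isoforms of a gene changed unequally, found nothing for RBM10. The edgeR p over its 5 isoforms was 0.978 with shRBM10#1, 0.367 with shRBM10#2, 0.393 between the shRNAs and 0.712 in the pooled comparison, with each FDR at 1.00. Over 72 other fits of the usage of RBM10 and RBM6, none passed an FDR of 0.05, and the lowest FDR was 0.119. Of 6405 genes with at least 2 isoforms past the filter, the test called 0.172% with shRBM10#1, 2.75% with shRBM10#2, 1.92% between the shRNAs and 1.50% in the pooled comparison. On simulated counts this test found a minority of the changed genes, and its false calls exceeded the nominal rate. A p that misses the threshold at this replicate spread does not show that the proportions were the same.

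RBM5 was counted through a single isoform, so its usage could not be tested. NM_005778, the full-length coding form, took all RBM5 counts, with 787 and 777 expected counts for shScr, 841 and 1173 for shRBM10#1 and 1153 and 1204 for shRBM10#2. Tested among isoforms, it gave nearly the fold changes of the gene total but no call, with a log2 FC of 0.39 with shRBM10#2 (edgeR FDR = 0.106, DESeq2 FDR = 0.00520) and 0.29 with shRBM10#1 (edgeR FDR = 0.283). NR_036627, the second RBM5 transcript, is classed as noncoding and is 74 nt shorter, which is the length of exon 6 alone. It was matched to the same transcript as NM_005778, so its lack of exon 6 was inferred from length. GENCODE 29 holds an RBM5 transcript that skips exon 6 and is classed as a target of nonsense-mediated decay. NR_036627 was listed at 0 in all 6 libraries. A count of 0 allows up to 3 counts, which is 0.249% to 0.386% of the RBM5 counts of a library, for counting error only. The level of a transcript that is subject to decay does not give the rate of skipping. No pair of RBM10 isoforms in the files differed by 74 nt in length, so skipping of RBM10 exon 6 was not counted here.

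An antisense transcript covers exon 6 of RBM5. RBM5-AS1 (ENSG00000281691.1, chr3:50099603-50100988, minus strand) is a single-exon noncoding RNA, and exons 5 (70 nt) and 6 (74 nt) of RBM5 lie wholly within it. Its expected counts were 10 and 9 for shScr, 9 and 4 for shRBM10#1 and 15 and 18 for shRBM10#2. This was 0.341% to 1.50% of the RBM5 counts of the same library, and the log2 FC was 0.58 with shRBM10#2 (SE 0.51, edgeR FDR = 0.441) and -0.59 with shRBM10#1 (SE 0.61, edgeR FDR = 0.566). The strand protocol is not given in the sources used here, and without strand, reads from RBM5 and from RBM5-AS1 in these exons cannot be told apart.

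The isoforms of RBM6 are a long form and a short form. NM_005777 matched RBM6-201 with 1123 codons, and NM_001167582 matched RBM6-210 with 601 codons, which lacks exons 3 to 6 (1279, 90, 70 and 74 nt, 1513 nt in all). The long form had CPM values of 19.8 and 18.6 for shScr, 17.9 and 17.6 for shRBM10#1 and 23.8 and 20.03 for shRBM10#2. The short form had 15.3 and 13.5, 13.6 and 12.9, and 11.7 and 12.4 in the same order. With shRBM10#2, both libraries were above the shScr libraries for the long form and below them for the short form, but neither isoform passed the test. The log2 FC with shRBM10#2 was 0.19 for the long form (SE 0.11, edgeR FDR = 0.398) and -0.26 for the short form (SE 0.12, edgeR FDR = 0.287). The short form made up 57.9% and 56.0% of RBM6 TPM for shScr, 57.5% and 56.5% for shRBM10#1 and 46.6% and 52.3% for shRBM10#2. The mean share with shRBM10#2 differed from that of shScr by -7.49 points (exact permutation p = 0.333, the smallest possible), and the usage test gave p = 0.418 (edgeR FDR = 1.00). By limma's diffSplice the usage p was 0.0199 (FDR = 0.119). Without shRBM10#2 replicate 1, the difference was -4.60 points.

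The paralogs were set beside other genes with a G-patch motif. Of 19 such genes, all tested, 1 rose and 0 fell with shRBM10#1 by edgeR, where 7.13% of all genes tested rose and 6.91% fell. With shRBM10#2, 3 rose and 5 fell, where 12.0% of all genes rose and 13.9% fell. The median log2 FC of the list was 0.07 and -0.10, beside 0.01 and 0.01 over all genes tested. For shRBM10#2 against shRBM10#1, 0 of the 19 were higher and 9 were lower. Of all genes tested, 1563 of 14217 were higher and 14.5% were lower. AGGF1, known as an angiogenic factor, was the only member called with both shRNAs. Its CPM was 45.4 and 46.8 for shScr, 54.0 and 54.2 for shRBM10#1 and 55.3 and 56.2 for shRBM10#2, with log2 FC of 0.23 (edgeR FDR = 0.0352) and 0.27 (edgeR FDR = 0.00993). CHERP, a U2 snRNP-associated splicing protein, fell by 0.55 on the log2 scale with shRBM10#2 (edgeR FDR = 0.000336) and had a log2 FC of -0.0011 with shRBM10#1. CMTR1, which methylates the mRNA cap, fell by 0.54 with shRBM10#2 (edgeR FDR = 0.00117), and its log2 FC with shRBM10#1 was -0.19 (edgeR FDR = 0.168). The remaining calls with shRBM10#2, named after their values were seen, were GPATCH11 and NKRF upward and GPANK1, GPATCH3 and GPATCH8 downward, by 0.20 to 0.30 on the log2 scale.

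RBM10 and its paralogs work with the U2 snRNP at the 3′ splice site, and 21 genes of that machinery were tested. With shRBM10#1, 1 rose and 0 fell by edgeR (7.13% and 6.91% of all genes tested), and with shRBM10#2, 4 rose and 3 fell (12.0% and 13.9% of all genes). The median log2 FC was 0.03 and -0.08. Between the shRNAs, 3 of the 21 were higher with shRBM10#2 and 5 were lower. Of all genes tested, 1563 of 14217 were higher and 14.5% were lower. SF3B6, which sits at the branch point, had CPM values of 81.6 and 72.1 for shScr, 84.8 and 92.5 for shRBM10#1 and 107 and 112 for shRBM10#2, and rose with shRBM10#2 (log2 FC 0.51, edgeR FDR = 0.000754). SMNDC1, a spliceosome assembly factor, rose with shRBM10#2 as well (log2 FC 0.48, edgeR FDR = 0.00135). U2AF2, which binds the polypyrimidine tract, had CPM values of 779 and 797, 738 and 664, and 544 and 557 in the same order, and fell with shRBM10#2 (log2 FC -0.52, edgeR FDR = 0.000426). None of these 3 passed with shRBM10#1 (edgeR FDR 0.0941 to 0.223). HTATSF1 was the gene called with shRBM10#1 (log2 FC 0.24, edgeR FDR = 0.0225), and it was named after its value was seen.

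Genes beside the 3 loci were counted too, to see whether RBM10 and RBM5 moved alone in their neighborhoods. Of 17 tested neighbors of RBM5 and RBM6 on chromosome 3, 0 were called with shRBM10#1 by edgeR (7.13% of all genes rose and 6.91% fell) and 1 with shRBM10#2 (12.0% rose and 13.9% fell), which was a fall of MST1R, a receptor tyrosine kinase (log2 FC -0.41, edgeR FDR = 0.00309). GNAI2, a G protein subunit, and HYAL3, of the hyaluronidase family, came next by p with shRBM10#2, with log2 FC of -0.13 (edgeR FDR = 0.139) and 0.41 (edgeR FDR = 0.0808). The list medians were 0.09 with shRBM10#1 and -0.07 with shRBM10#2. Between the shRNAs, 0 of the 17 were higher with shRBM10#2 and 3 were lower. Of all genes tested, 1563 of 14217 were higher and 14.5% were lower. Of 11 tested neighbors of RBM10 on the X chromosome, 0 were called with shRBM10#1 by edgeR, where 7.13% of all genes rose and 6.91% fell. With shRBM10#2, where 12.0% rose and 13.9% fell, TIMP1, a metalloproteinase inhibitor, rose (log2 FC 0.38, edgeR FDR = 0.00721) and USP11, a deubiquitinase, fell (log2 FC -0.37, edgeR FDR = 0.00266), and ARAF, a RAF kinase, had a log2 FC of -0.20 (edgeR FDR = 0.0507). The list medians were 0.10 and -0.02. Between the shRNAs, 1 of the 11 was higher with shRBM10#2 and 3 were lower, against the same background. ARAF was among those lower (log2 FC -0.38, edgeR FDR = 0.00224).

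The genes whose levels most resembled each of the 3 were found by Pearson r of log2 CPM over the 6 libraries, among genes with a mean of at least 100 counts per library. The 6 libraries fall into 3 conditions, so r is given as a description only, and 5.15% of 11405 genes had an r with RBM10 beyond 0.95 in either direction. Among the genes most like RBM10 were TNIP1 (r = 0.998), PACSIN2 (0.996) and LAMB3 (0.994), and those most opposed were DUSP19 (-0.9999) and NCK1 (-0.998). For RBM5, the most alike were C5orf15 (0.998), SLC2A11 (0.998), PRCP (0.996) and NTAN1 (0.994), and the most opposed were FLNA (-0.998) and ACO1 (-0.998). An r with RBM5 beyond 0.95 was found for 3.28% of genes. The r of RBM10 was -0.83 with RBM5 and -0.21 with RBM6. FLNA, an actin crosslinker, had CPM values of 2520 and 2625, 2008 and 1450.4, and 1539 and 1543 in the same order, with its lowest value in shRBM10#1 replicate 2, where RBM5 was highest. For RBM6, they were PEAK1 (0.983), SRPK2 (0.983), FNBP4 (0.969) and PAPD7 (0.958), with B3GNTL1 (-0.976) and PRKCE (-0.975) opposed, and 0.123% of genes had an r with RBM6 beyond 0.95.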

How the data were processed

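RNA was extracted from PC-9 cells and sequenced on an Illumina platform. Per the labels and the submitters' processing notes, reads were aligned with STAR 2.4 to hg19 and quantified with RSEM 1.2.29. The deposited tables give each RefSeq isoform an RSEM expected count, a TPM, an FPKM and its percent of the gene, with lengths and effective lengths, and replicates were not pooled by the authors. The roles of the tools are inferred from their names, and the strand protocol is not given in the sources used here.

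Expected counts were summed per gene symbol, rounded, and fitted by edgeR 4.0.16 under R 4.3.3 (quasi-likelihood, TMM, filterByExpr, 1 coefficient per condition, all 6 libraries), with Benjamini-Hochberg FDR over all genes or isoforms tested and a threshold of 0.05. Usage was tested with diffSpliceDGE (Simes p). DESeq2 1.42.0, limma 3.58.1 on log2(TPM + 1) or log2(TPM + 0.1), limma's diffSplice, DESeq2's size factors, no filter, at least 10 counts per library, a replicate block, the compared libraries alone, and each library left out were alternatives. TPM sums and shares were tested by exact permutation. All tests were two-sided. The procedures were tested on simulated counts, where the usage test found a minority of the changed genes and its false calls exceeded the nominal rate.

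The members, gene lists and alternatives were chosen with earlier results of these data known. Named beside the members were the 4 genes most and 2 least correlated with each, RBM5-AS1, and, per list, the 3 members with the smallest p with shRBM10#2 and any called with both shRNAs. A gene that this rule named is not reported here. Isoforms were matched to GENCODE 29 (GRCh38), from which positions and sequences were taken, and no coordinates were converted from hg19. NM_001204467 shared the match of NM_005676, and NR_036627 that of NM_005778. How each differs from its partner was taken from the listed lengths. No pair of replicates was a repeat of 1 library (chi-square 3.24 to 12.5 times its degrees of freedom).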

Additional observations from a re-analysis of the deposited data

How the results depend on the processing

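RBM10 kept its direction and its call in each of 14 alternatives per comparison, except the pooled comparison with the 4 shRNA libraries as 1 group (-0.99, FDR = 0.146), where the RBM5 call was also lost (0.34, FDR = 0.119). The RBM5 call with shRBM10#1 was lost with DESeq2 (log2 FC 0.29, FDR = 0.0666), the replicate block (0.29, FDR = 0.0510), the compared libraries alone (0.29, FDR = 0.0889) and limma on TPM with a pseudocount of 1 (0.18) or 0.1 (0.19). On the same TPM scales, the RBM5 calls with shRBM10#2 (0.30 and 0.32) and with both shRNAs (0.24 and 0.26) were lost, and RBM6 with shRBM10#2 turned to -0.10 and -0.11.

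With 1 library left out, RBM5 ranged from 0.17 to 0.41 with shRBM10#1, 0.37 to 0.40 with shRBM10#2, 0.28 to 0.40 with both and -0.029 to 0.22 between the shRNAs, and RBM6 from -0.051 to 0.079 with shRBM10#2 and -0.11 to 0.011 with both. NM_001204466 ranged from -0.71 to 1.25 with shRBM10#1 and -1.13 to 0.54 with both, NM_005778 from -0.026 to 0.22 between the shRNAs, and NM_005777 from -0.027 to 0.10 with both. In percentage points, the exon 4 share ranged from -13.9 to 2.25 between the shRNAs, the share with the 3 extra bases from -4.10 to 3.46 with shRBM10#1, -0.13 to 8.30 with shRBM10#2 and -0.25 to 3.88 with both, and the short RBM6 share from -0.90 to 0.94 with shRBM10#1, where expected counts gave -0.10.

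With 1 library left out, the number of genes called ranged from 985 to 2626 with shRBM10#1, 954 to 4566 with shRBM10#2, 918 to 3736 between the shRNAs and 1100 to 3680 with both, beside 1996, 3685, 3628 and 2610 with all libraries. On log2(TPM + 1), limma called 960, 1651, 1264 and 1229, and with the 4 shRNA libraries as 1 group edgeR called 230 in the pooled comparison. Isoform calls were the least stable. In the same order they numbered 380, 1647, 1403 and 705 with at least 10 counts in each library, 2416, 4598, 4251 and 3468 with DESeq2, and 39 for shRBM10#1 without a filter. The edgeR replicate block called 0 isoforms in each comparison (3167, 4961, 4670 and 4053 at an unadjusted p under 0.05), and edgeR on the compared libraries alone called 0 with shRBM10#1 (3031) and 0 between the shRNAs (5536). With 1 library left out, isoform calls ranged from 0 to 1, 0 to 151, 0 to 2 and 0 to 0 by edgeR. The causes were not tested. Replicate numbers did not pair the libraries (correlation of deviations -0.088 to -0.044), and the block called 1755, 3209, 3175 and 2252 genes.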
